A study of Homo sapiens with 4 samples.

Results

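The genes examined here are 10 enzymes and partner proteins of epigenetic silencing, measured by their probes on expression arrays of the colorectal cancer line HCT116. They are the writers of DNA methylation *DNMT1*, *DNMT3A* and *DNMT3B*, with the DNMT1 partner *UHRF1*, and *TET1*, *TET2* and *TET3*, which oxidize the methyl mark. *EZH2*, *SUZ12* and *EED*, the core of Polycomb repressive complex 2 (PRC2), complete the 10. All 10 were taken by symbol from a list of epigenetic silencing genes, and the rule used no measured value. The list was, however, drawn up with earlier results of these data known. The arrays hold probes named for 20046 genes, and 9 of the 10 were among them, since no probe was named for *TET3*. Of their 20 probes, 12 were kept for testing and covered 7 genes, a probe being kept where it was detected (p under 0.05 against the negative controls of the array) on 2 or more of the 4 arrays.

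DNA methylation is laid down at CpG sites by DNMT3A and DNMT3B, is copied after replication by DNMT1, which UHRF1 brings to half-methylated DNA, and is removed stepwise after oxidation by the TET enzymes. PRC2 methylates lysine 27 of histone H3 through EZH2, which is active only together with SUZ12 and EED, and thereby keeps developmental genes silent. Colorectal tumors often carry dense methylation at the promoters of genes that are open in normal colon, and many of these genes are Polycomb targets in stem cells.

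HCT116-MT and HCT116-WT are purchased sublines of HCT116. The parental line has 1 mutant and 1 wild-type allele of the β-catenin gene *CTNNB1*, and each subline keeps only 1 of these after the other was disrupted. HCT116-MT has the mutant allele alone and HCT116-WT the wild-type allele alone, neither line was treated, and both grew in the same medium. Labeled cRNA made from total RNA of 2 samples per line was hybridised to HumanHT-12 v4 arrays, 1 array per sample, so that each line is a single engineered subline, and a difference between the lines cannot be told apart from other differences between these sublines. Neither the labels nor the methods state that the 2 samples of a line were separate cultures. The p-values therefore reflect the spread of these samples alone, and this spread may be technical.

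Between 19604 and 20101 of 47321 probes were detected per array. The correlation over the 20579 kept probes was 0.980 for the 2 HCT116-MT arrays, 0.965 for the 2 HCT116-WT arrays and 0.964 to 0.969 across the lines, so the HCT116-WT arrays were as far from each other as from the other line. *CTNNB1* itself had intensities of 2833 and 2196 in HCT116-MT, against 2143 and 1949 in HCT116-WT (log2 fold change 0.29 with an SE of 0.20, adjusted p = 0.683 in the limma fit). Its probe does not read which allele is present, so it does not check the genotypes. Of 7 colon epithelial markers 4 were detected on all arrays, *EPCAM*, *KRT8*, *KRT19* and *CDX2*, and 3 on none. *EPCAM*, an epithelial adhesion gene, fell, with 7883 and 11200.3 in HCT116-MT, against 22117 and 14375 in HCT116-WT (log2 fold change -0.92, SE 0.29, limma adjusted p = 0.391), but it did not pass without replicate 1 of HCT116-MT (-0.67) or without replicate 1 of HCT116-WT (-0.61). The log2 fold changes of *KRT8* (-0.35), *KRT19* (-0.60) and *CDX2* (0.19) did not pass. The part of these markers in the values of the enzymes was not tested. Of 13 fibroblast, leukocyte and endothelial markers, *COL1A1*, *PDGFRB* and *VWF* were detected on all arrays, at 381 or less. The leukocyte gene *CD14* was detected on 3 arrays, and *LYZ* and the fibroblast gene *DCN* on 2, at 197 or less. The others, among them the leukocyte gene *PTPRC*, were detected on none.

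The promoters of the genes are shown first, because *DNMT1*, *UHRF1* and *EZH2* are known targets of E2F factors, which drive genes of DNA replication, and β-catenin acts through TCF factors. RefSeq gave 22 promoter windows of 300 bases for the 10 genes in build GRCh38.p14. The E2F-type motif was searched on both strands in 4 spellings, TTTGGCG (found in *EZH2*), TTTCGCG (found in *DNMT1* and *UHRF1*), TTTCCCG (found in *UHRF1* and *SUZ12*) and TTTGCCG (found in *UHRF1*). It lay in 5 of these windows (22.7%) and in 4 of the 10 genes, compared with 8.67% of 35116 windows and 10.4% of 27305 genes in the whole table. The TCF-type motifs CTTTGAT and CTTTGAA lay in 2 windows (9.09%), of *SUZ12* and *TET2*, compared with 6.86% of all windows. The shares were not adjusted for the number of windows per gene or for GC content. A match describes the letters and is not evidence of binding. For each of the 4 genes, 100 bases that hold an E2F-type motif are given 5′ to 3′ along the gene, with the motifs in capitals. They are chr19:10194944-10195043 on the minus strand for *DNMT1*, chr19:4909411-4909510 on the plus strand for *UHRF1*, chr7:148884282-148884381 on the minus strand for *EZH2*, each spanning bases -90 to 10 around the start site, and chr17:31936772-31936871 on the plus strand for *SUZ12*, which ends 136 bases before it.
DNMT1: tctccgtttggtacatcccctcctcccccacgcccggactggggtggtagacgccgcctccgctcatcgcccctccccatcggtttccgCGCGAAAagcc
UHRF1: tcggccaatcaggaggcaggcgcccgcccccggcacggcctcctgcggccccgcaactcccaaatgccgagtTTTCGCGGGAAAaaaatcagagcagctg
EZH2: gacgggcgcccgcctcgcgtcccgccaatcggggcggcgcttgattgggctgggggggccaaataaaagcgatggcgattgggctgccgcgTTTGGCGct
SUZ12: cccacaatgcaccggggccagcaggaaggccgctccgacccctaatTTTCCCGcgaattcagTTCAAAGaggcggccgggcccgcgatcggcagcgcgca
In *UHRF1* the capitals hold TTTCGCG and, overlapping it on the opposite strand, TTTCCCG. Its TTTGCCG, at base 29 from the same start site, and a TTTCGCG in another window lie outside the bases shown. In *SUZ12* the first capitals are TTTCCCG and the second are the TCF-type CTTTGAA on the opposite strand.

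No gene of the group differed between the lines at the thresholds the study used, a fold change over 1.5 together with a p under 0.05. The methods do not say whether that p was adjusted, and it was taken here as unadjusted. With limma, 0 of the 7 tested genes passed, against 7.33% of the 11875 tested genes of the arrays, 3.48% upward and 3.86% downward in HCT116-MT. None of the 7 had an unadjusted p under 0.05 (10.7% of all genes) or an adjusted p under 0.05 (0.0505%). Likewise 0 of the 12 probes passed the thresholds (6.24% of all kept probes), and 0 had an unadjusted p under 0.05 (9.44%). The mean was higher in HCT116-MT for 3 of 7 genes (50.0% of all genes) and lower for 4, and the median log2 fold change was -0.11, beside -0.00 over all genes. The adjusted p-values of the 7 genes lay between 0.639 and 0.961, and the 95% interval of each is given below, since a p that misses the threshold does not show that the lines were alike. In the following, intensities are quantile-normalized values without a unit, those of a line are given in the order replicate 1 and replicate 2, and levels of different probes are not set against each other. In RNA from whole cultures, fewer cells with a transcript and less transcript per cell cannot be told apart.

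**Figure D1:**
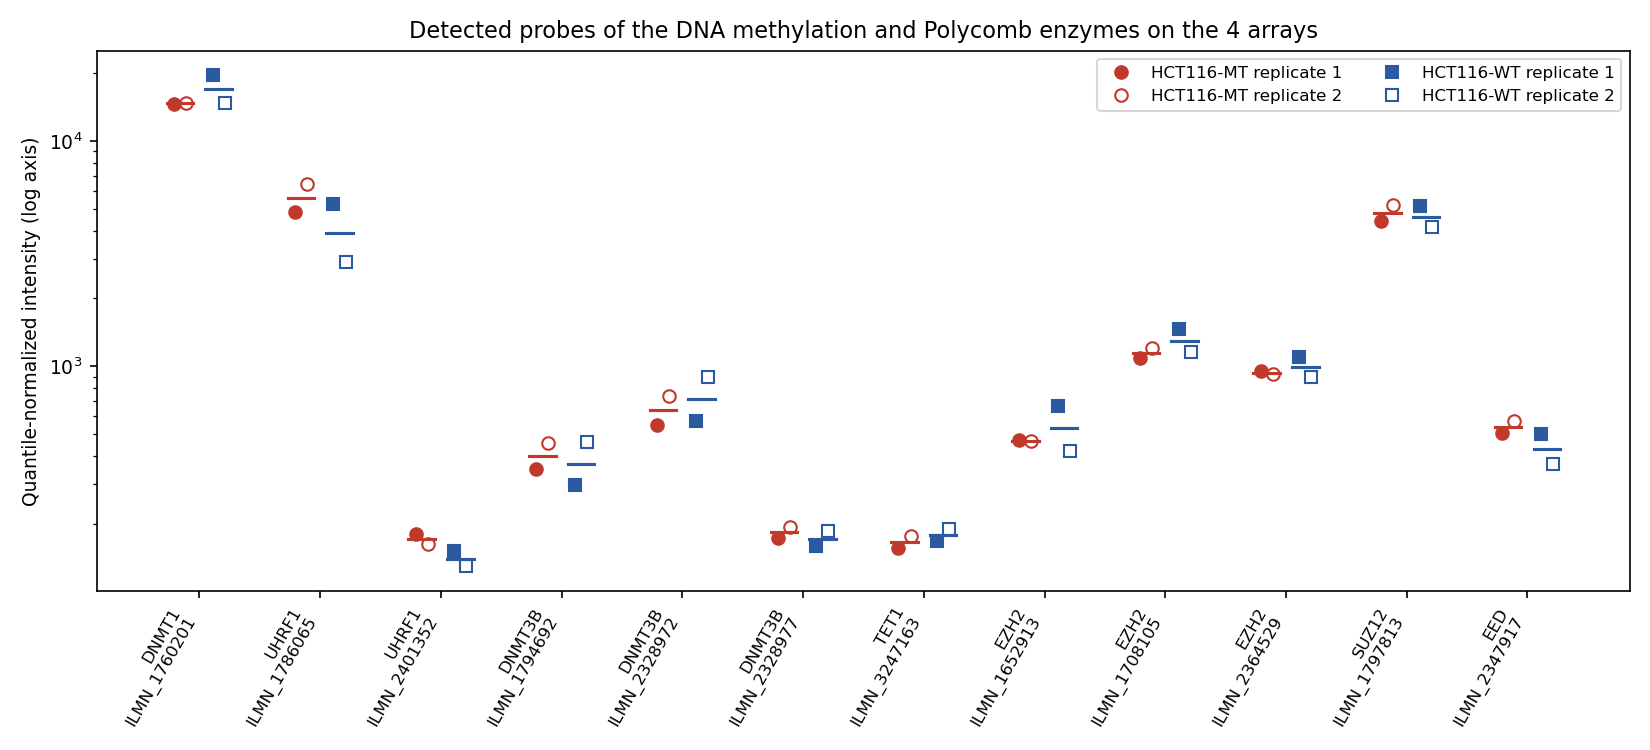
Quantile-normalized intensity (log axis) of the 12 kept probes on each array, with circles for HCT116-MT and squares for HCT116-WT, filled for replicate 1 and open for replicate 2, and a bar at the mean of each line. The 2 HCT116-WT arrays are farthest apart for the brighter UHRF1 probe, at 1.81-fold, and only the DNMT1 probe, the dim UHRF1 probe and the EED probe have lines that do not overlap.

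Neither gene of the maintenance pair passed the test. *DNMT1*, the maintenance methyltransferase, had intensities of 14621 and 14755 in HCT116-MT, against 19515.5 and 14772 in HCT116-WT. The HCT116-MT arrays nearly coincided, just below the lower HCT116-WT array, and replicate 1 of HCT116-WT stood alone above the other 3. The log2 fold change was -0.21 (SE 0.20, limma adjusted p = 0.771), with a 95% interval of 0.609-fold to 1.23-fold. It was -0.01 when replicate 1 of HCT116-WT was left out, against -0.41 when replicate 2 of HCT116-WT was. The interval does not include a rise of 1.5-fold in HCT116-MT, but it includes a fall of that size.

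*UHRF1*, which recognizes half-methylated CpG sites, had the largest mean difference of the 7 genes. Its brighter probe, ILMN_1786065, gave 4853 and 6425 in HCT116-MT, against 5225 and 2888 in HCT116-WT. The lines overlapped, because replicate 1 of HCT116-WT was above replicate 1 of HCT116-MT, and the 2 HCT116-WT arrays were 1.81-fold apart, a gap that 6.92% of the kept probes reached. The log2 fold change was 0.52 (SE 0.33, limma adjusted p = 0.639; 95% interval 0.819-fold to 2.52-fold). Without replicate 1 of HCT116-WT it was 0.95, past the thresholds but with an adjusted p = 0.233 in limma, and without replicate 2 of HCT116-WT it was 0.10. A dimmer probe, ILMN_2401352, was detected on 3 of the 4 arrays. It gave 179.6 and 163.6 in HCT116-MT, against 151.1 and 129.8 in HCT116-WT. Its lines did not overlap, and its log2 fold change was 0.29 (SE 0.18, adjusted p = 0.705 over probes with limma).

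Of the de novo methyltransferases only *DNMT3B* was detected. None of the 3 *DNMT3A* probes was above background on any array, with detection p-values between 0.183 and 0.940, so the arrays give no level for this gene in either line. *DNMT3B* had 5 probes, of which 3 were detected on all arrays and 2 on none (lowest detection p 0.0766). Its brightest probe, ILMN_2328972, gave 551 and 738 in HCT116-MT, against 569 and 895 in HCT116-WT. Replicate 2 was the brighter array in both lines, by 1.34-fold in HCT116-MT and 1.57-fold in HCT116-WT, and the lines overlapped. The log2 fold change was -0.16 (SE 0.28, limma adjusted p = 0.881; 95% interval 0.548-fold to 1.46-fold). The other probes had the opposite sign, at 0.11 (SE 0.28) for ILMN_1794692, with 349.8 and 457 in HCT116-MT against 297 and 460.3 in HCT116-WT, and at 0.09 (SE 0.18) for ILMN_2328977, with 174 and 193.5 in HCT116-MT against 159.6 and 186 in HCT116-WT. Replicate 2 was also the brighter array of both lines for these probes. No direction can be given for *DNMT3B*, since its probes disagreed in sign and the brightest one turned to 0.05 when replicate 1 of HCT116-MT was left out and to 0.16 when replicate 2 of HCT116-WT was.

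The TET dioxygenases were dim or not detected. *TET1* had 1 detected probe of 3, which gave 156 and 176 in HCT116-MT, against 168 and 191 in HCT116-WT (log2 fold change -0.11, SE 0.18, with limma adjusted p = 0.873). The lines overlapped, and the probe was detected on all arrays at p-values of up to 0.0299. The 95% interval of 0.678-fold to 1.27-fold lay inside 1.5-fold in both directions in the main fit, which made no background correction. With a normexp background correction the log2 fold change was -0.19, and its interval was not computed. With 1 array left out the log2 fold change lay between -0.20 and -0.02. The signal was close to the median intensity of all probes, which was 126.7 and 122.0 in HCT116-MT and 135.0 and 125.8 in HCT116-WT before normalization. The single *TET2* probe was detected on no array (detection p 0.148 to 0.592). *TET3* was not analysed here.

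The 3 core subunits of PRC2 were detected in both lines, and none passed the test. *EZH2*, the methyltransferase, had 3 detected probes, and all were brightest in replicate 1 of HCT116-WT. The brightest probe, ILMN_1708105, gave 1089.5 and 1203 in HCT116-MT, against 1465 and 1154 in HCT116-WT (log2 fold change -0.18, SE 0.20, limma adjusted p = 0.795; 95% interval 0.625-fold to 1.24-fold). The HCT116-MT arrays lay on either side of 1 HCT116-WT array, so the lines overlapped. ILMN_1652913 gave 471 and 466 in HCT116-MT, against 667 and 422 in HCT116-WT, where the arrays were 1.58-fold apart (log2 fold change -0.18, SE 0.26). ILMN_2364529 gave 951 and 923 in HCT116-MT, against 1100.3 and 899 in HCT116-WT (log2 fold change -0.09, SE 0.19). These last 2 probes turned to 0.15 and 0.06 without replicate 1 of HCT116-WT, and the brightest one to -0.01.

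*SUZ12*, the subunit on which PRC2 is assembled, gave 4401 and 5169 in HCT116-MT, against 5116 and 4155 in HCT116-WT. The lines overlapped, and the log2 fold change was 0.05 (SE 0.20, limma adjusted p = 0.961), with no settled direction, since it was -0.02 without normalization. Its 95% interval of 0.733-fold to 1.46-fold lay inside 1.5-fold in both directions in the main fit, with the upper limit close to 1.5-fold. Intervals were not computed for the alternatives. *EED*, which binds trimethylated lysine 27 and spreads the mark, gave 507 and 569.9 in HCT116-MT, against 503 and 371 in HCT116-WT. Its lines did not overlap, although replicate 1 of each was nearly level, and its log2 fold change was 0.32 (SE 0.22, limma adjusted p = 0.673; 95% interval 0.858-fold to 1.81-fold). It was 0.54 when replicate 1 of HCT116-WT was left out, against 0.10 when replicate 2 was. The lines did not overlap for 2 of the 7 genes, *DNMT1* and *EED* (39.9% of all genes), and for 3 of the 12 probes (39.2% of all kept probes).

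**Figure D2:**
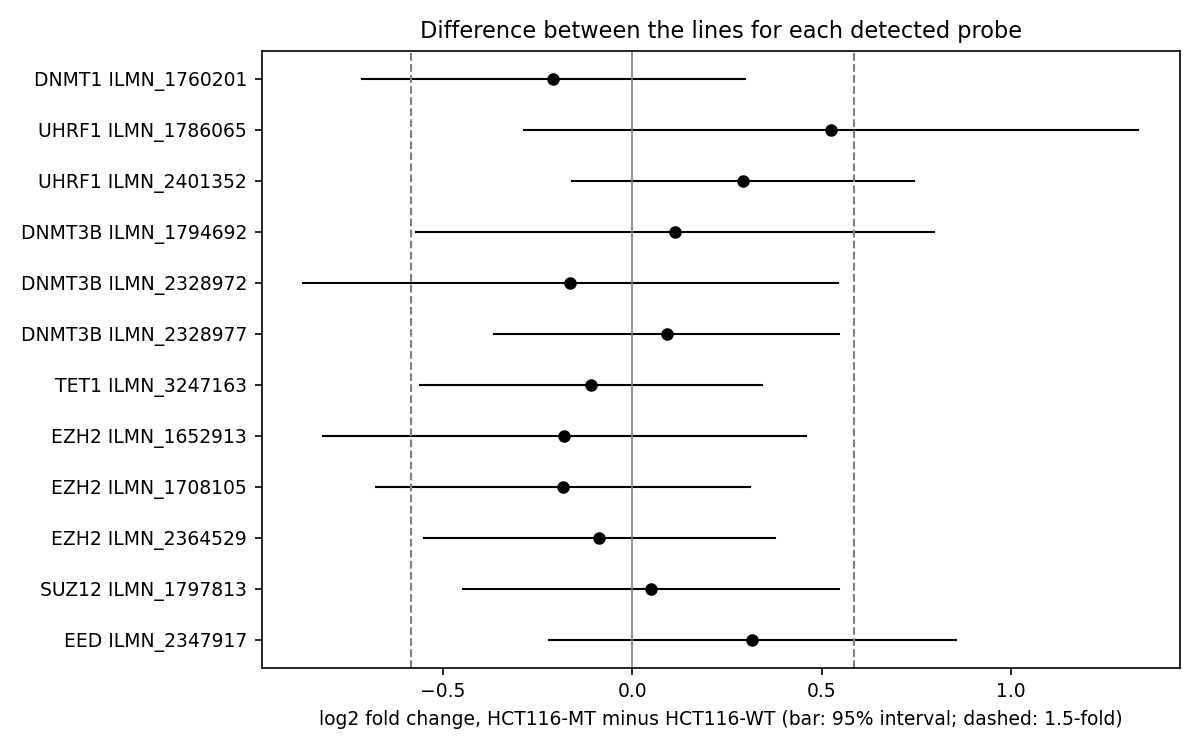
Log2 fold change, HCT116-MT minus HCT116-WT, of each kept probe with its 95% interval from limma, and dashed lines at a 1.5-fold difference in either direction. Every interval includes 0, and that of the brighter UHRF1 probe, ILMN_1786065, reaches farthest to the right, to 2.52-fold.

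The gap between the 2 HCT116-WT arrays was wider than the difference between the lines for 7 of 7 genes (59.7% of all genes). It was so for 11 of 12 probes, a share not counted over all probes. It was wider than the gap between the 2 HCT116-MT arrays for 7 of 7 genes (58.3% of all genes). A gap between single arrays varies more than a difference of means, so the first comparison favors the gap. The genes share the same arrays and are not independent observations. Replicate 1 was the brighter array of HCT116-MT for 0 of 7 genes (51.5% of all genes), and of HCT116-WT for 5 of 7, *DNMT1*, *UHRF1*, *EZH2*, *SUZ12* and *EED* (51.9% of all genes). The 4 genes with an E2F-type motif were among these 5, and *EED* had no such motif. The share of all genes with the motif that were brighter there was not counted. A link between motif and gap was not tested. *DNMT3B* and *TET1* went the other way in HCT116-WT.

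Markers of proliferation had the same direction between the HCT116-WT arrays. Of 20 such genes, among them *MKI67*, *PCNA* and the *MCM* helicase subunits, replicate 1 was brighter for 4 in HCT116-MT, with a median gap of -0.10 on the log2 scale, and for 15 in HCT116-WT, with a median gap of 0.32. Between the lines 18 of the 20 had the higher mean in HCT116-MT and 2 the lower, with a median log2 fold change of 0.39, but 1 passed the thresholds. This was *CDK1*, the mitotic cyclin-dependent kinase, at 3457 and 4148 in HCT116-MT, against 1629 and 2307 in HCT116-WT (log2 fold change 0.97, SE 0.24, limma adjusted p = 0.325), and it did not pass when replicate 2 of HCT116-MT was left out. With replicate 2 of HCT116-WT left out, the median of the 20 genes was 0.04, with 3 genes that rose, and with replicate 1 of HCT116-WT left out it was 0.48, with 7. The part of proliferation in the gaps of *UHRF1* and the other genes was not tested.

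**Figure D3:**
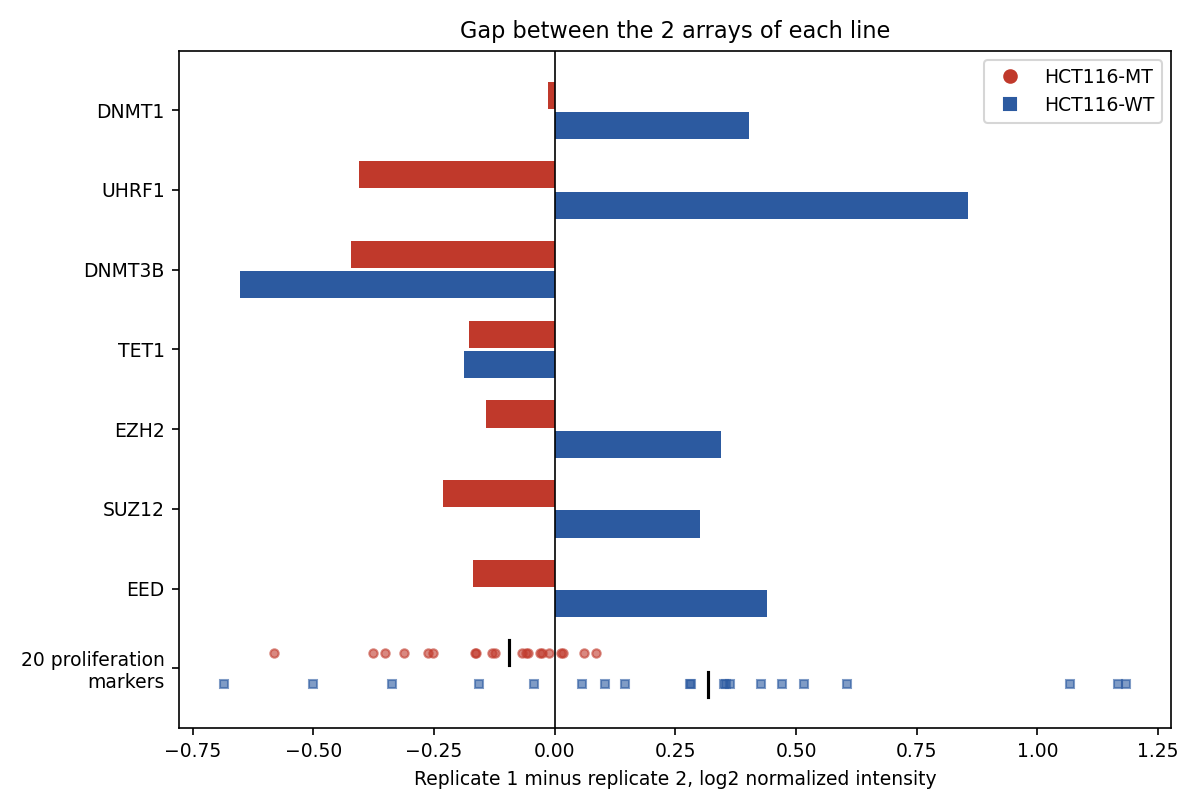
Replicate 1 minus replicate 2 on the log2 scale for each tested gene, by its brightest probe (bars, HCT116-MT above HCT116-WT), and for 20 proliferation markers (points, with a black bar at the median). In HCT116-WT the bars of 5 genes point to the right, as do 15 of the 20 markers, whereas in HCT116-MT all 7 bars point to the left.

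The factors that work beside these enzymes were followed through lists taken from general knowledge, but chosen with earlier results of these data known. The median of a list is given beside that of all genes, -0.00, and without normalization, which put the median of all genes at -0.12, the medians of 6 lists turned below 0. These were the lists of DNA methylation partners, the methyl donor cycle, PRC2 accessory subunits, lysine 9 methylation, promoter-methylated genes and Polycomb targets. Among 13 tested partners and readers of DNA methylation 0 rose and 1 fell, with 7 means higher and 6 lower in HCT116-MT (median log2 fold change 0.09). The fall was that of *ZBTB4*, which binds methylated CpG, at 1147 and 1038 in HCT116-MT, against 1993 and 1375 in HCT116-WT (log2 fold change -0.60, SE 0.23, limma adjusted p = 0.459). It passed in 1 of the 4 fits that left out an array, and a further probe gave -0.11. *HELLS*, a chromatin remodeler needed for DNA methylation, did not pass and was picked after its values were seen, because its highest array was replicate 2 of HCT116-MT and its lowest replicate 2 of HCT116-WT, as for *UHRF1*. It gave 540.2 and 705 in HCT116-MT, against 507 and 282 in HCT116-WT (log2 fold change 0.71, SE 0.32, limma adjusted p = 0.521). Of 12 genes of base excision and further demethylation steps and 7 genes of the methyl donor cycle, none passed the thresholds (medians -0.07 and 0.10). Neither median kept its sign with each array left out, with ranges of -0.16 to 0.14 and -0.04 to 0.15.

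PRC2 takes up accessory subunits that direct it to its sites, and 0 of 11 tested genes of this kind passed, with 7 means higher and 4 lower (median log2 fold change 0.12). Replicate 1 of HCT116-WT, the brighter array of that line for all 3 core subunits, was the brighter one for 2 of these 11 genes. PRC1 is the second Polycomb complex, which ubiquitinates histone H2A, and 2 of its 23 tested subunits rose and 2 fell (median -0.02). *PCGF6*, a subunit of a noncanonical PRC1, rose, with 2239 and 3386 in HCT116-MT, against 1799.9 and 1487 in HCT116-WT (log2 fold change 0.75, SE 0.26, limma adjusted p = 0.409), and its other 2 probes gave 0.86 and 0.96. *KDM2B*, which brings PRC1 to CpG islands, rose, with 5839.8 and 6748 in HCT116-MT, against 4006 and 3772 in HCT116-WT (log2 fold change 0.69, SE 0.18, limma adjusted p = 0.333), but its other probe gave 0.05.

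*BCOR*, a corepressor of the same PRC1 variant as *KDM2B*, fell, with 441 and 702 in HCT116-MT, against 971 and 1008 in HCT116-WT (log2 fold change -0.83, SE 0.26, limma adjusted p = 0.388). Its other probe gave -0.44, short of a 1.5-fold change. The further fall was that of *CBX6*, a chromodomain subunit, with -0.65 (SE 0.22). Of the 4 fits that left out an array, *BCOR* and *KDM2B* passed in 3, *PCGF6* in 2 and *CBX6* in 1. Without replicate 1 of HCT116-MT *BCOR* did not pass, at -0.50. *KDM2B* did not pass without replicate 2 of HCT116-MT, at 0.59.

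Another list held genes whose products oppose Polycomb, such as the demethylase *KDM6A* and the deubiquitinase cofactor *ASXL1*, and not all encode enzymes. Of these, 1 of 8 fell and 7 of 8 means were lower in HCT116-MT (median log2 fold change -0.21, or -0.07 without replicate 1 of HCT116-WT). *MBD6*, a subunit of the deubiquitinase that removes the PRC1 mark, gave 1009 and 729.5 in HCT116-MT, against 1769 and 1546 in HCT116-WT (log2 fold change -0.95, SE 0.22, limma adjusted p = 0.318). The lines did not overlap, and the fall stayed past the thresholds whichever array was left out. In the third silencing system, methylation of lysine 9 of histone H3, 2 of 13 genes rose and 0 fell, with 9 means higher and 4 lower (median 0.13). Both encode forms of heterochromatin protein 1. *CBX3* gave 1188 and 1414 in HCT116-MT, against 557 and 779 in HCT116-WT (log2 fold change 0.98, SE 0.23, limma adjusted p = 0.318), although its other probe gave 0.17. *CBX1* gave 1088 and 1146 in HCT116-MT, against 689 and 612 in HCT116-WT (log2 fold change 0.78, SE 0.17, limma adjusted p = 0.318). Both stayed past the thresholds whichever array was left out. *CBX5*, which encodes a further form of this protein, did not pass, and its lines overlapped. It gave 1346 and 1584 in HCT116-MT, against 1447 and 1163 in HCT116-WT (log2 fold change 0.17, SE 0.20, limma adjusted p = 0.812).

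Genes on which these systems act were counted last. Of 31 genes with a probe that are known for promoter methylation in colorectal cancer, 18 had no kept probe (40.8% of all genes with a probe had none), and of the 13 tested 2 rose and 0 fell (median log2 fold change 0.07). *MGMT*, a DNA repair gene silenced by methylation in many tumors, gave 806 and 683 in HCT116-MT, against 138 and 136 in HCT116-WT, where it was detected on neither array. It was at least 5.19-fold higher (adjusted p = 0.0376 with limma), a bound taken against the lowest detected signal of the HCT116-WT arrays or the probe's own value there, whichever was higher. It was kept through the HCT116-MT arrays alone, so its place among the rises is in part set by the filter. Its adjusted p lay between 0.0151 and 0.624 over the alternatives, among them 0.137 with the replicate number as a block, 0.0633 with median scaling, and 0.572, 0.410 and 0.0592 without replicate 1 of HCT116-MT, replicate 2 of HCT116-MT or replicate 1 of HCT116-WT. *VIM*, the mesenchymal filament gene whose methylation is used as a stool marker, gave 7944 and 4522 in HCT116-MT, against 705 and 912 in HCT116-WT (log2 fold change 2.90, SE 0.31, limma adjusted p = 0.0953), and its other probe gave 3.19. The methylation of these promoters was not measured in this series.

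Cancer-testis genes are germline genes that reopen when DNA methylation is lost. Of 23 with a probe, 15 had no kept probe, and of the 8 tested 2 rose and 0 fell, with all 8 means higher in HCT116-MT (median 0.28). The median depended on the filter, and it was 0.02 over all genes of the list with a probe and 0.53 with detection at p under 0.01. The count of higher means covers kept genes only. A gene can be kept through the line where it is higher, so this count may depend on the filter too. *MAGEA12* gave 2424 and 2856 in HCT116-MT, against 1569 and 1394 in HCT116-WT (log2 fold change 0.83, SE 0.19, limma adjusted p = 0.318). *MAGEA6* gave 1819 and 2034 in HCT116-MT, against 979 and 1203 in HCT116-WT (log2 fold change 0.83, SE 0.19, limma adjusted p = 0.318). Their other probes gave 0.49 and between 0.61 and 0.62. These genes are near-identical copies, and a probe of one can read another, so they are not separate observations. Of 35 developmental regulators that are Polycomb targets in stem cells, 21 had no kept probe, and 0 of the 14 tested passed (11 means higher, 3 lower, median 0.07). That median was 0.007 with no filter on detection and -0.011 with median scaling.

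**Figure D4:**
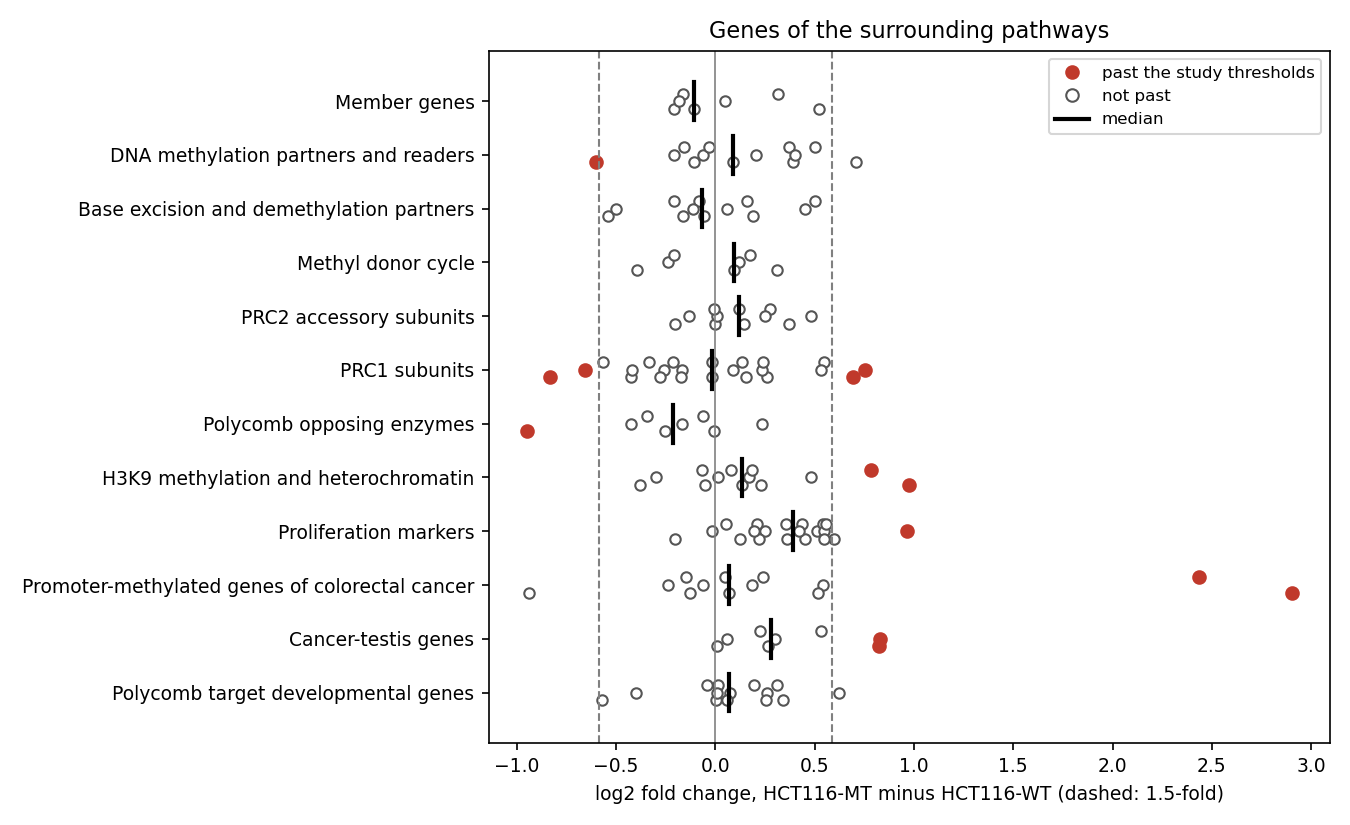
Log2 fold change, HCT116-MT minus HCT116-WT, of every tested gene of the group and of each list, with filled points for genes past the study thresholds, dashed lines at 1.5-fold and a bar at the median. The genes of the group all lie inside the dashed lines, and the points farthest out are VIM at 2.90 and MGMT, which is drawn at its fitted value although it is a bound.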

How the data were processed

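Labeled cRNA from total RNA of 2 HCT116-MT and 2 HCT116-WT samples was hybridised to Illumina HumanHT-12 v4 arrays. The authors read the arrays out in GenomeStudio and deposited a table of 47321 probes, with an intensity per array that was not yet normalized and a detection p-value against that array's negative controls. They also deposited a series table. Of 47319 probe IDs shared by both, 26122 (55.2%) have other intensities there than in the non-normalized table, including 6 of the 20 probes described here. Where these other intensities come from was not traced. Over 3312 genes with 2 such probes, the correlation between the probes of a gene was 0.438 in the non-normalized table and 0.248 in the series table, across genes, which are not independent replicates. Every value here comes from the non-normalized one.

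Intensities were taken to log2 and quantile-normalized, as in the methods of the study. Probes were kept where the detection p-value was under 0.05 on 2 or more arrays (20579 probes). Lines were compared with limma 3.58.1 in R 4.3.3, since the integrated statistical method of the study is not described there, with Benjamini-Hochberg adjustment over 11875 genes (the brightest kept probe of each) or over probes. The exact permutation test of 2 against 2 cannot give a p under 0.333. The number of arrays limits the precision. Probe genes came from the platform annotation (1 symbol for 30112 probes, several for 8, none for 17201), of which 30073 probes matched a RefSeq gene of GRCh38.p14. Plots were made in Python 3.11.15 (matplotlib 3.10.9). The steps were tested on simulated data. The genes and lists were chosen with earlier results of these data known. Named genes were every member of the group, *CTNNB1* and, from each list, up to 3 genes past the thresholds by size of change. Further named genes are markers, list examples or were picked after their values were seen (*HELLS*, *CBX6*, *CBX5*).

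Alternatives were cyclic loess, scaling to the median, no normalization, a normexp background correction with offset 16, no filter on detection, a filter at 0.01, detection on both arrays of a line, a mean-variance trend, Student's t-test, the replicate number as a block, each array left out in turn, and all kept probes of a gene averaged.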

Additional observations from a re-analysis of the deposited data

How the results depend on the processing

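With up to 15 alternatives per result, 97 of 104 fold changes of the enzymes kept their direction and side of the threshold, and 85 of 118 counts stayed within 1.5-fold. Higher genes (413) numbered 256 with median scaling, 151 without normalization and 152 with Student's t-test, and lower genes (458) 697 without normalization and 175 with the t-test. For probes the higher ones (648) numbered 401, 221 and 254 under the same settings, and the lower ones (637) 983 and 231. Genes higher in HCT116-MT made up 47.4% of the genes past the thresholds, 32.7% with median scaling and 17.8% without normalization, which shifted the median of all genes to -0.12. Leaving out 1 array gave 260 to 784 higher and 268 to 876 lower genes, and 397 to 1182 higher and 391 to 1308 lower probes. Genes at adjusted p under 0.05 (6) numbered 12 with normexp, 2 with median scaling, 17 with a mean-variance trend, 1 with the t-test and 0 to 64 without an array, the 64 being without replicate 2 of HCT116-WT. Listed genes that rose (9) numbered 6 to 21 without an array, and those that fell (5, *EPCAM* among them) 3 to 7, or 0 with the t-test.

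Among the enzymes themselves 0 genes passed in the main comparison, and 0 to 1 without an array, the exception being *UHRF1* with replicate 1 of HCT116-WT left out. The log2 fold change of *UHRF1* lay between 0.10 and 0.95 without an array. *DNMT3B* reversed to 0.013 with the mean of its probes, and ranged from -0.49 to 0.16 without an array. *SUZ12* reversed to -0.017 without normalization, and ranged from -0.10 to 0.20 without an array. Of the single probes, ILMN_1794692 of *DNMT3B* reversed to -0.040 without normalization and ranged from -0.20 to 0.43 without an array, ILMN_2328977 of *DNMT3B* reversed to -0.0083 without normalization and ranged from -0.019 to 0.20, and of *EZH2* ILMN_1652913 ranged from -0.51 to 0.15 and ILMN_2364529 from -0.23 to 0.058. The cause of these changes was not tested. Without normalization the list medians were -0.08 for DNA methylation partners, -0.06 for the methyl donor cycle, -0.04 for PRC2 accessory subunits, -0.02 for lysine 9 methylation and -0.08 for Polycomb targets, 0.28 for proliferation markers and 0.18 for cancer-testis genes, whose median was 0.45 with normexp.

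The replicate numbers do not pair the samples as far as the labels say, and the replicate gaps of the 2 lines correlated at 0.05 over the kept probes. With the replicate number as a block, 413 genes were higher and 541 lower, 0 had an adjusted p under 0.05, and 0 of the enzymes passed.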
